A study of Mus musculus with 10 samples.

Results

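The lysosome genes of 10 mouse melanoma lines were examined as a set of 44 listed genes: the 3 mucolipin channels, 7 membrane proteins, 19 hydrolases (10 proteases, 9 glycosidases and lipid hydrolases), 3 soluble cofactors, 2 transcription factors and 10 genes of the proton pump. A gene was taken from the array where a transcript cluster (the group of probes that reads 1 transcript) carried its symbol alone, and where several did, the cluster with the highest mean was used. By this rule 43 of the 44 genes were measured, and all 43 were among the 16352 genes tested, out of 23360 genes with a symbol of their own. The remaining gene, Glb1 (beta-galactosidase), was read only by a cluster shared with Tmppe and was not analysed.

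All lines were B16 melanoma cells of C57BL/6 origin that carry ovalbumin (OVA) as a model tumour antigen, and RNA of each line was read once on an Affymetrix mouse gene array. The parent line, B16OVA, was 1 sample. The 3 NIMM lines (1, 3 and 4) came from tumours in naive B6 mice that had not been immunized, the 3 IMM lines (1, 2 and 8) from tumours in B6 mice immunized with OVA, and the 3 GKO-IMM lines (1, 2 and 3) from tumours in OVA-immunized mice lacking IFN-γ. According to the study's design text, IMM lines grew progressively on re-challenge of OVA-immunized mice, whereas NIMM and GKO-IMM lines did not, and the arrays were run to look for expression changes that go with this resistance. The study had no group from naive IFN-γ-deficient hosts, and the age of the hosts is not given in the sources used here. Nothing in the labels says that the lines of a group came from separate mice, so the p-values measure only the spread between these lines. With so few arrays, the precision is limited by their number.

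Lysosomes are acidic organelles in which hydrolases break down proteins, glycans and lipids. The vacuolar proton pump (V-ATPase) acidifies the lumen, mucolipins release calcium and other cations from it, and transcription factors of the family of TFEB, TFE3 and MITF switch on many lysosomal genes through a short palindromic DNA element. In pigment cells the melanosome is a lysosome-related organelle, and in mice a mutated Mcoln3 causes the varitint-waddler phenotype of deafness and diluted, patchy coat pigment.

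The arrays were alike in level. Their median intensities lay between 31.9 and 32.5, and the correlation of log2 intensity between any 2 arrays lay between 0.993 and 0.998. All 7 melanocyte markers (among them Tyr, Pmel and Mitf) were at a log2 intensity of 9.14 or more in every line. Of 31 markers of macrophages, T cells, fibroblasts and endothelium, 17 were above the filter on low values, and none passed a test between the groups. No macrophage marker exceeded a log2 intensity of 5.36, and no marker of the other 3 cell types exceeded 5.85. The summed intensity of the 13 macrophage markers was 357 in the parent line, 341 to 356 in NIMM, 355 to 356 in IMM and 349 to 360 in GKO-IMM lines. In such bulk samples fewer cells of a type and less RNA per cell cannot be told apart.

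The promoters of the 3 mucolipin genes are shown because the 3 channels ran in different orders across the lines. The windows run from 250 bases before to 50 bases after a gene start listed in RefSeq on GRCm38.p6. Capitals mark the palindrome CACGTG, with a T directly before it or an A directly after it where the window has one.
Mcoln1 promoter, chr8:3500269-3500568, + strand: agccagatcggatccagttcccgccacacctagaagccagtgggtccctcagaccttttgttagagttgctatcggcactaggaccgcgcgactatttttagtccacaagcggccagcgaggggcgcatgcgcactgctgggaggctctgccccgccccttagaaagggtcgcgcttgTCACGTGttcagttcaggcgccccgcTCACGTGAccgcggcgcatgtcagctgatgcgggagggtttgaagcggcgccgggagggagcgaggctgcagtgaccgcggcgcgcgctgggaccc
Mcoln2 promoter, chr3:146149924-146150223, + strand: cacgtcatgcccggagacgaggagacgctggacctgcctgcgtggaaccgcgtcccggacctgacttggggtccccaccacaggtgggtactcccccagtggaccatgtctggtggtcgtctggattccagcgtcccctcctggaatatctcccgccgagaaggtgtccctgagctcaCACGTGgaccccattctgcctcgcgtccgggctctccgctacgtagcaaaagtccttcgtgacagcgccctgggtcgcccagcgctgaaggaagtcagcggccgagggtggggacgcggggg
Mcoln3 promoter, chr3:146121541-146121840, + strand: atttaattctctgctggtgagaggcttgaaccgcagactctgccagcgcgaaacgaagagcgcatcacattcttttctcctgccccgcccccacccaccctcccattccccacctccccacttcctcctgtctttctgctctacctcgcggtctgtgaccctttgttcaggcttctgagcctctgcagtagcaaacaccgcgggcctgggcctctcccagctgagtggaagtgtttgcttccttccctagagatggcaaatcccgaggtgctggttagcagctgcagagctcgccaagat
The Mcoln1 window held the palindrome at 2 places, 1 of them with both flanking letters (TCACGTGA). The Mcoln2 window held it once, without either flanking letter, and the Mcoln3 window did not hold it. The Mcoln2 and Mcoln3 windows lie inside the gene spans given below, so the upstream ends of those spans were not searched.

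RefSeq promoters were found for 38 of the 44 listed genes, in 46 windows because some genes have several starts. CACGTG, which reads the same on both strands, was present in 14 of the 46 windows (30.4%), and in 7.15% of the 32851 promoter windows of the whole table. The longer TCACGTG, searched on both strands and always containing the shorter one, was present in 11 of 46 windows (23.9%) against 3.77% of all windows. Among 75 windows of 63 other genes of the lysosomal pathway, 17 (22.7%) held TCACGTG. The sites of the other listed genes with both flanking letters are shown with their surroundings, because the same 8 letters recur in 2 pump subunits, a membrane protein, proteases and a glycosidase.
Atp6v0d1, chr8:105566052-105566077, - strand: ctactgcggTCACGTGAgacgcggtg
Atp6v1a, chr16:44139375-44139400, - strand: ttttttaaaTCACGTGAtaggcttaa
Cln3, chr7:126583342-126583367, - strand: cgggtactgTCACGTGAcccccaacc
Ctsa, chr2:164833751-164833776, + strand: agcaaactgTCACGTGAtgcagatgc
Ctsa, chr2:164833768-164833793, + strand: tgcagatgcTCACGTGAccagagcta
Ctsd, chr7:142387910-142387935, - strand: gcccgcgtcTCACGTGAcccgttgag
Gla, chrX:134601217-134601242, - strand: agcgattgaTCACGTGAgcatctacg
Gla, chrX:134601184-134601209, - strand: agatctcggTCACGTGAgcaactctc
These letters are a description of the promoters and not evidence of binding. Among the genes measured, the median difference of IMM from GKO-IMM lines was 0.08 on the log2 scale for the 10 with TCACGTG in a promoter and 0.05 for the 27 without it. For GKO-IMM against NIMM the medians were -0.01 and -0.00053.

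Across the whole set, the lysosomal genes stayed close to their level in all groups, and Mcoln3 was the 1 gene that passed a test. Differences between groups of 3 lines were tested with limma on log2 intensity over all 16352 genes, with Benjamini-Hochberg adjustment and a threshold of 0.05. In IMM against NIMM lines 0 of the 43 genes passed, against 0.428% of all genes. In IMM against GKO-IMM lines 1 of 43 passed, against 1.17% of all genes. In GKO-IMM against NIMM lines 0 of 43 passed, against 0.122% of all genes. In IMM lines against the mean of both other groups 1 of 43 passed, against 0.807% of all genes. The 3 groups are shared among these comparisons, so the 4 counts are not independent, and a share of 1 in 43 rests on a single gene. An unadjusted p below 0.05 was found in 7 of 43 genes (16.3%, against 14.1% of all genes) for IMM against NIMM and in 12 (27.9%, against 17.2%) for IMM against GKO-IMM. The counts were 6 (14.0%, against 13.9%) for GKO-IMM against NIMM and 10 (23.3%, against 16.4%) for IMM against the mean of both other groups.

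The differences were small, and about as many intervals stayed near 0 as over all genes. The medians of the 2 comparisons with IMM lay somewhat above those of all genes, and a larger part of the differences was above 0. The median difference over the 43 genes was 0.05 for IMM minus NIMM, 0.05 for IMM minus GKO-IMM and -0.00053 for GKO-IMM minus NIMM, beside 0.02, 0.01 and 0.01 over all genes tested. In these comparisons 33, 26 and 20 of the 43 differences were above 0, beside 9250, 8864 and 8811 of all 16352. Without IMM 1, 26 of 43 were above 0 in IMM minus NIMM. The 95% interval of the difference lay within 0.5 log2 units of 0 for 41, 39 and 41 of the 43 genes (95.3%, 90.7% and 95.3%), as it did for 95.3%, 92.8% and 95.1% of all genes. The genes whose interval reached further were Mcoln3 and Tfe3 in all 3 comparisons, and Mcoln2 and Cd68 in IMM against GKO-IMM lines.

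**Figure D1:**
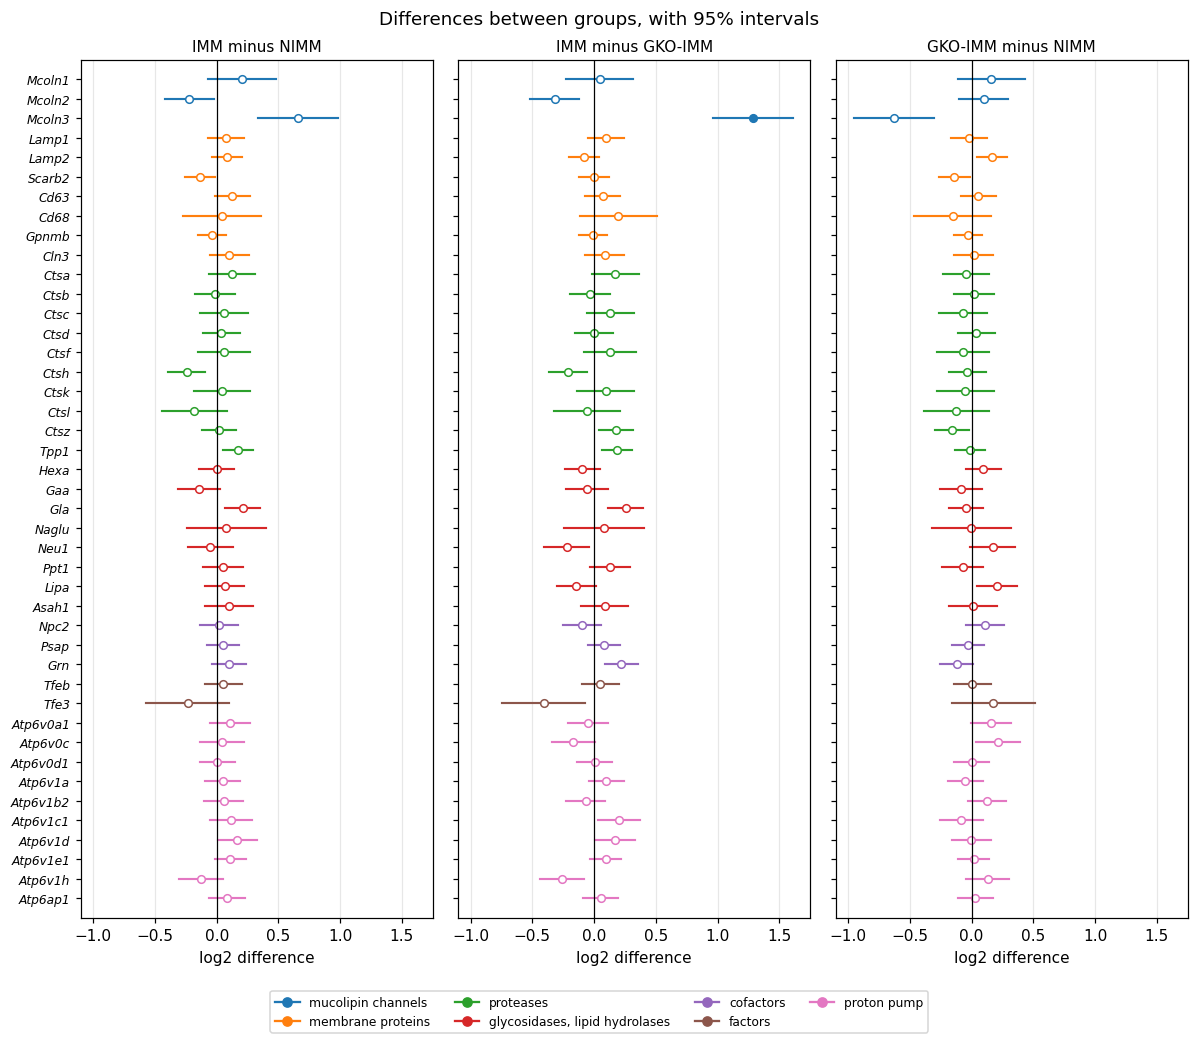
Difference of the log2 intensity between groups for each of the 43 genes (points, with 95% intervals from limma as bars), coloured by role, with filled points where the adjusted p was under 0.05. Most points lie near 0 and the filled point is Mcoln3 in IMM minus GKO-IMM, at 1.28.

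Mcoln3 encodes the mucolipin channel of endosomes and lysosomes that is altered in varitint-waddler mice. Its log2 intensity was 5.57 in the parent line, 6.36, 6.52 and 6.57 in NIMM lines 1, 3 and 4, 6.72, 7.47 and 7.23 in IMM lines 1, 2 and 8, and 5.91, 5.87 and 5.79 in GKO-IMM lines 1, 2 and 3. The IMM lines were the highest, the NIMM lines intermediate and the GKO-IMM lines low, no 2 groups overlapped, and the parent lay below all 9 tumour-derived lines. Mcoln3 was higher in IMM than in GKO-IMM lines by 1.28 ± 0.15 (SE, n = 3 and 3), a 2.43-fold difference (limma, adjusted p = 0.00342, 95% interval 0.96 to 1.61). Against the mean of both other groups the difference was 0.97 ± 0.13 (limma, adjusted p = 0.00596), a 1.96-fold difference.

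The steps on either side of NIMM were of similar size and did not pass. IMM minus NIMM was 0.66 ± 0.15 (limma, adjusted p = 0.0928) and GKO-IMM minus NIMM was -0.63 ± 0.15 (limma, adjusted p = 0.129), each with 3 lines a group. IMM 1 was the lowest of its group and the nearest to the NIMM lines. Without IMM 1 the difference from NIMM was 0.86 and passed (limma, adjusted p = 0.0072). GKO-IMM minus NIMM, still -0.63, then passed as well (limma, adjusted p = 0.0252). IMM 1 is in neither of those 2 groups but enters the shared spread. With only the groups compared, GKO-IMM minus NIMM also passed (limma, adjusted p = 0.0332). The difference from the mean of both other groups did not pass without IMM 8 (0.92, limma, adjusted p = 0.0519).

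In RefSeq the Mcoln3 gene spans chr3:146093277-146141808 on mm10, the build of the array's annotation. Part of this span lies within the neighbouring gene Wdr63. Where in the span the probes of the Mcoln3 cluster lie was not examined. Wdr63, a dynein-related gene with a cluster of its own, had mean log2 intensities of 4.97, 4.93 and 4.93 in NIMM, IMM and GKO-IMM lines, and its difference of IMM from GKO-IMM lines was 0.0017 (limma, adjusted p = 0.994). Neighbours on the other side included Mcoln2, described next, and Lpar3, a lysophosphatidic acid receptor, whose difference was 0.04. Wdr63 and Lpar3 lay near the filter on low values. Syde2, a further neighbour, had means of 6.85, 6.90 and 6.83 in NIMM, IMM and GKO-IMM lines, which is the order of groups seen for Mcoln3, but the groups overlapped and IMM minus GKO-IMM was 0.07 (limma, adjusted p = 0.773).

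Mcoln2, the adjacent mucolipin at chr3:146149796-146195514, encodes a channel best known from immune cells. Its log2 intensity was 7.67 in the parent, 7.46, 7.49 and 7.69 in NIMM lines 1, 3 and 4, 7.19, 7.41 and 7.37 in IMM lines 1, 2 and 8, and 7.73, 7.70 and 7.50 in GKO-IMM lines 1, 2 and 3. All 3 IMM lines lay below the other 6, the opposite order to Mcoln3, while NIMM and GKO-IMM lines overlapped. IMM minus GKO-IMM was -0.32 ± 0.09 (n = 3 and 3, limma, adjusted p = 0.109, 95% interval -0.52 to -0.12) and IMM minus NIMM was -0.22 ± 0.09 (limma, adjusted p = 0.313), so neither passed.

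Mcoln1 (chr8:3500519-3515232), the widely expressed lysosomal mucolipin that is mutated in human mucolipidosis type IV, had log2 intensities of 7.64 in the parent, 7.57, 7.52 and 7.84 in NIMM lines 1, 3 and 4, 7.92, 7.54 and 8.09 in IMM lines 1, 2 and 8, and 7.85, 7.80 and 7.77 in GKO-IMM lines 1, 2 and 3. The groups overlapped, and the IMM lines alone covered nearly the whole range. Its differences were 0.21 for IMM minus NIMM, 0.05 for IMM minus GKO-IMM and 0.16 for GKO-IMM minus NIMM (limma, adjusted p = 0.475, 0.903 and 0.596).

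**Figure D2:**
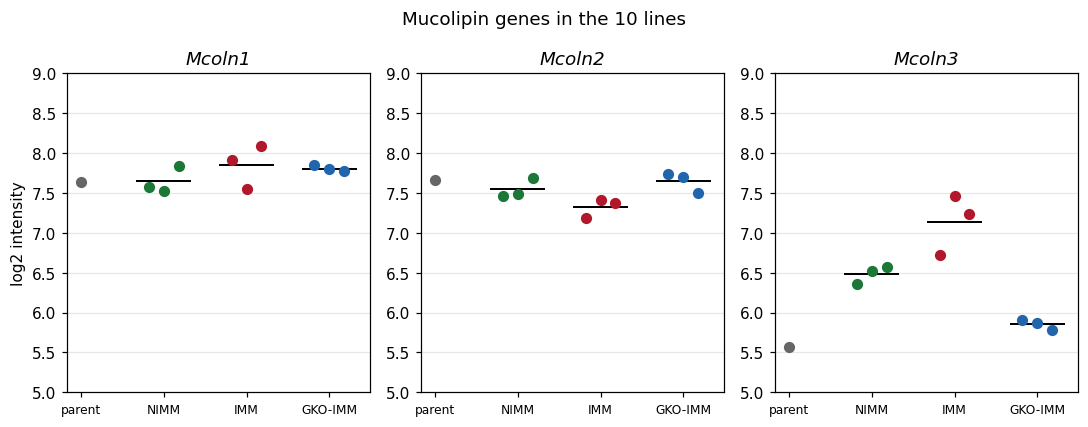
Log2 intensity of the 3 mucolipin genes in the parent line and in the 3 lines of each group (points, with the group mean as a line). For Mcoln3 the IMM lines sit between 6.72 and 7.47 and the GKO-IMM lines between 5.79 and 5.91, whereas the IMM lines are the lowest for Mcoln2 and overlap the others for Mcoln1.

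Of the 7 lysosomal membrane proteins none passed in any comparison. Lamp1 (chr8:13159161-13175338), an abundant glycoprotein that lines the lysosomal membrane, had log2 intensities of 10.97 in the parent, 11.01, 10.96 and 10.99 in NIMM lines 1, 3 and 4, 11.11, 10.93 and 11.16 in IMM lines 1, 2 and 8, and 10.98, 10.96 and 10.97 in GKO-IMM lines 1, 2 and 3. All groups overlapped, and IMM minus GKO-IMM was 0.10 (95% interval -0.05 to 0.24).

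Lamp2, its relative that also serves as the receptor of chaperone-mediated autophagy, stood at 9.98 in the parent, 9.88, 9.87 and 9.96 in NIMM lines 1, 3 and 4, 10.04, 9.97 and 9.96 in IMM lines 1, 2 and 8, and 10.09, 10.07 and 10.06 in GKO-IMM lines 1, 2 and 3. The GKO-IMM lines were the highest 3 of the 9, without passing (GKO-IMM minus NIMM 0.17 ± 0.06, limma, adjusted p = 0.236). Scarb2, the receptor that carries glucocerebrosidase to the lysosome, stood at 8.33 in the parent, 8.29, 8.28 and 8.27 in NIMM lines 1, 3 and 4, 8.18, 8.13 and 8.12 in IMM lines 1, 2 and 8, and 8.21, 8.10 and 8.13 in GKO-IMM lines 1, 2 and 3. Both groups from immunized hosts lay below NIMM without overlap, by values of -0.14 each (limma, adjusted p = 0.313 for IMM and 0.307 for GKO-IMM).

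The remaining membrane proteins varied little, except Cd68. Gpnmb, a melanosomal and lysosomal glycoprotein, spanned 0.06 log2 units over the 9 lines. Cd63, a tetraspanin of late endosomes, ranged from 10.64 to 10.92, and Cln3, a protein lost in juvenile Batten disease, from 4.80 to 5.06. Cd68, a macrophage-associated lysosomal glycoprotein, ranged from 5.56 in GKO-IMM 3 to 6.29 in NIMM 1 and was at 7.19 in the parent. Of the 13 macrophage markers, whose summed intensities are given above, 6 were above the filter, and their part in the Cd68 values was not tested.

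None of the 18 hydrolases measured passed in any comparison, and for all 18 the 95% interval of every difference between 2 groups lay within 0.5 log2 units of 0, as it did for 92.8% to 95.3% of all genes in single comparisons. Among the 18, Ctsf (5.01 to 5.36 over the 9 lines) and Ctsk (5.02 to 5.51) lay near the filter on low values. The median difference of the 18 was 0.05 for IMM minus NIMM, 0.08 for IMM minus GKO-IMM and -0.04 for GKO-IMM minus NIMM. Of the 10 proteases, 9 cathepsins and the tripeptidyl peptidase Tpp1, the pair with the smallest p-values had differences of opposite sign.

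Ctsh, an aminopeptidase cathepsin (chr9:90054267-90076095), had log2 intensities of 6.36 in the parent, 6.15, 5.96 and 6.12 in NIMM lines 1, 3 and 4, 5.76, 5.82 and 5.92 in IMM lines 1, 2 and 8, and 6.02, 6.10 and 6.01 in GKO-IMM lines 1, 2 and 3. The IMM lines were below the other 6, with a difference from their mean of -0.23 ± 0.06 (n = 3 and 6, limma, adjusted p = 0.115). Tpp1, the peptidase lost in late infantile Batten disease, stood at 11.38 in the parent, 11.35, 11.30 and 11.31 in NIMM lines 1, 3 and 4, 11.47, 11.48 and 11.53 in IMM lines 1, 2 and 8, and 11.34, 11.25 and 11.34 in GKO-IMM lines 1, 2 and 3. Here the IMM lines were above the other 6, by 0.18 ± 0.05 (limma, adjusted p = 0.12).

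Among glycosidases and lipid hydrolases the smallest p-values were those of Gla and Lipa. Gla (chrX:134588169-134601005), the alpha-galactosidase deficient in Fabry disease, whose promoter carries 2 of the sites shown above, had log2 intensities of 8.16 in the parent, 8.17, 8.10 and 8.06 in NIMM lines 1, 3 and 4, 8.30, 8.24 and 8.42 in IMM lines 1, 2 and 8, and 8.10, 8.08 and 8.02 in GKO-IMM lines 1, 2 and 3. The IMM lines were above all others. The difference was 0.26 ± 0.06 against GKO-IMM (n = 3 and 3, limma, adjusted p = 0.0834) and 0.23 ± 0.06 against the mean of both groups (limma, adjusted p = 0.0881), which is near the threshold without passing it.

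Lipa, the acid lipase that cleaves cholesteryl esters and triglycerides, stood at 10.39 in the parent, 9.96, 9.96 and 10.06 in NIMM lines 1, 3 and 4, 10.12, 10.16 and 9.90 in IMM lines 1, 2 and 8, and 10.23, 10.17 and 10.20 in GKO-IMM lines 1, 2 and 3. The GKO-IMM lines were the highest of the 9 (GKO-IMM minus NIMM 0.21 ± 0.07, limma, adjusted p = 0.254). Neu1, the lysosomal sialidase, was likewise highest in the 3 GKO-IMM lines, at 8.51 to 8.53, and did not pass (IMM minus GKO-IMM -0.22, limma, adjusted p = 0.205).

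Of the soluble cofactors, Grn encodes progranulin, a secreted and lysosomal glycoprotein. Its log2 intensity was 11.46 in the parent, 11.22, 11.13 and 11.06 in NIMM lines 1, 3 and 4, 11.23, 11.20 and 11.28 in IMM lines 1, 2 and 8, and 11.01, 10.98 and 11.06 in GKO-IMM lines 1, 2 and 3. IMM lines were above GKO-IMM lines without overlap, by 0.22 ± 0.06 (limma, adjusted p = 0.108). Npc2, which carries cholesterol inside the lysosome, stood at 9.78 in the parent, 9.76, 9.66 and 9.83 in NIMM lines 1, 3 and 4, 9.85, 9.67 and 9.77 in IMM lines 1, 2 and 8, and 9.89, 9.89 and 9.79 in GKO-IMM lines 1, 2 and 3. Its groups overlapped, and GKO-IMM minus NIMM was 0.11 (limma, adjusted p = 0.508).

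The 2 listed transcription factors of lysosomal genes did not pass either. Tfeb was near the lower end of the measured range, with log2 intensities of 5.17 in the parent, 5.25, 5.15 and 5.12 in NIMM lines 1, 3 and 4, 5.34, 5.14 and 5.20 in IMM lines 1, 2 and 8, and 5.16, 5.23 and 5.13 in GKO-IMM lines 1, 2 and 3. All groups overlapped, and IMM minus GKO-IMM was 0.05 (95% interval -0.10 to 0.20). The filter on low values was set at 4.74.

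Tfe3 (chrX:7762530-7775202) was at 8.64 in the parent, 8.45, 8.50 and 9.19 in NIMM lines 1, 3 and 4, 8.42, 8.53 and 8.49 in IMM lines 1, 2 and 8, and 8.89, 8.86 and 8.91 in GKO-IMM lines 1, 2 and 3. NIMM 4 stood apart from the other NIMM lines, the GKO-IMM lines were alike, and all 3 IMM lines lay below them. IMM minus GKO-IMM was -0.41 ± 0.15 (limma, adjusted p = 0.206), with the largest within-group spread of all 43 genes (SD 0.24). Without NIMM 4, which is in neither of these groups but enters the shared spread, this difference passed (limma, adjusted p = 0.00139).

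The 10 measured genes of the proton pump differed little between groups. Their median differences were 0.07 for IMM minus NIMM, 0.03 for IMM minus GKO-IMM and 0.02 for GKO-IMM minus NIMM, none passed, and the 95% interval of each difference between 2 groups lay within 0.5 log2 units of 0 for all 10, again near the share over all genes. Atp6v1h, a regulatory subunit of the cytosolic sector that holds the catalytic sites, had log2 intensities of 8.09 in the parent, 8.20, 8.14 and 8.19 in NIMM lines 1, 3 and 4, 8.16, 7.93 and 8.06 in IMM lines 1, 2 and 8, and 8.34, 8.42 and 8.17 in GKO-IMM lines 1, 2 and 3. IMM lines lay just below GKO-IMM lines, by -0.26 ± 0.08 (limma, adjusted p = 0.13).

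Atp6v1d, part of the rotating stalk of the same sector, stood at 9.41 in the parent, 9.54, 9.52 and 9.66 in NIMM lines 1, 3 and 4, 9.84, 9.63 and 9.76 in IMM lines 1, 2 and 8, and 9.64, 9.59 and 9.49 in GKO-IMM lines 1, 2 and 3. Its groups overlapped, and IMM lines differed from the mean of both other groups by 0.17 ± 0.06 (limma, adjusted p = 0.228). Atp6v0c, the proteolipid of the proton-conducting ring, ranged from 5.73 to 6.18 over the 9 lines. Every other pump gene measured lay higher, the next being Atp6v1h with a lowest value of 7.93. A further cluster of the array is shared by Atp6v0c, Atp6v0c-ps2 and Akr1d1 and was not used. The values of Atp6v0c are uncertain, and why they were low was not tested.

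**Figure D3:**
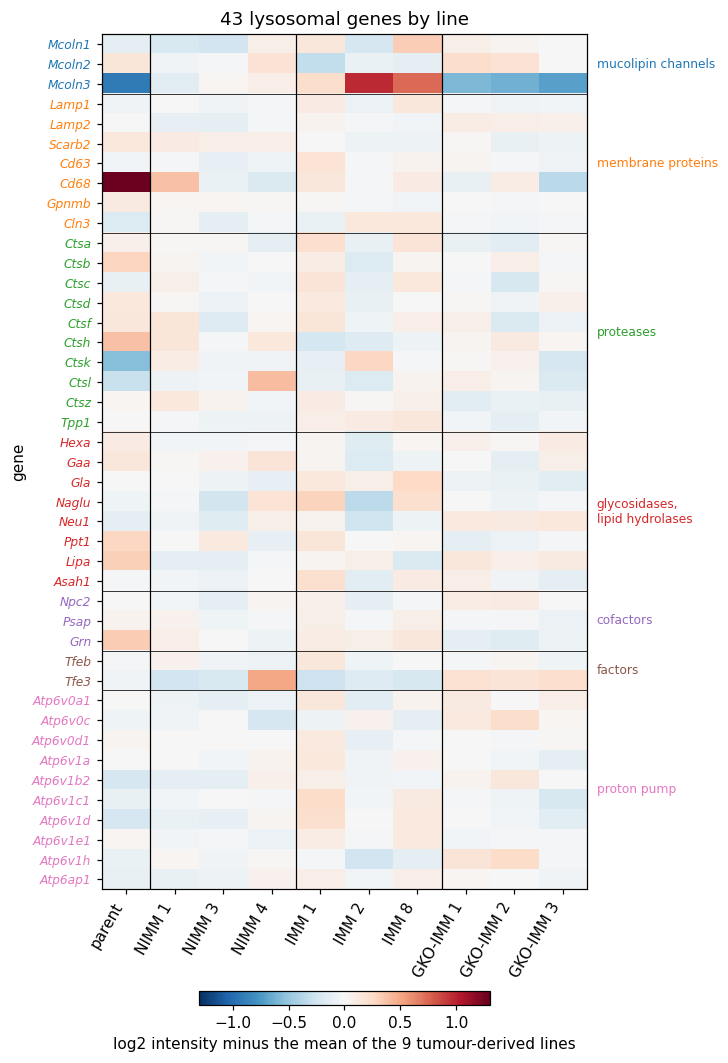
Log2 intensity of the 43 genes (rows, by role) in the 10 lines (columns), each minus the mean of that gene over the 9 tumour-derived lines. The strongest colours are those of Mcoln3, low in the parent and the GKO-IMM lines and high in IMM 2 and IMM 8, and of Cd68 in the parent.

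Groups without overlap were counted as well, because a gene can separate 3 lines from 3 without passing the test. IMM and NIMM lines did not overlap for 8 of 43 genes, against 18.6% of all genes tested. For IMM against GKO-IMM lines the count was 14 of 43, 7 higher and 7 lower in IMM, against 25.8% of all genes. For GKO-IMM against NIMM lines it was 11 of 43, against 19.5% of all genes. The first share equals the background and the other shares lie a little above it.

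In 6 of 43 genes the IMM lines lay outside the range of all 6 other tumour-derived lines, against 6.79% of all genes. They were higher for Mcoln3, Gla, Tpp1 and Atp6v1e1, a stalk subunit of the pump, and lower for Mcoln2 and Ctsh. For Atp6v1e1 the difference from the mean of both groups was 0.10 (limma, adjusted p = 0.33). Of these 6 genes only Mcoln3 passed the test.

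Hydrolases, pump genes and mucolipins were then set side by side in single lines. For each line the mean over a role's genes was taken of the log2 intensity minus that gene's mean over the 9 lines. Over the 9 tumour-derived lines this mean ran from -0.08 in IMM 2 to 0.08 in IMM 1 for the 18 hydrolases, and from -0.06 in IMM 2 to 0.10 in IMM 1 for the 10 pump genes, so that lines of the IMM group held both ends. The parent was at 0.04 for the hydrolases and at -0.07, below all 9 lines, for the pump genes. For the 3 mucolipins the mean ran from -0.23 in GKO-IMM 3 to 0.31 in IMM 8 with the parent at -0.30, and Mcoln3 was the mucolipin with the widest range.

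IMM 2 was the lowest of the 3 IMM lines in 31 of 43 genes (72.1%), against 34.2% of all genes tested. IMM 1 was the highest of the 3 in 26 of 43 (60.5%), against 32.5% of all genes. Mcoln3 ran the other way, highest in IMM 2 and lowest in IMM 1. The other groups had such uneven orders too. NIMM 3 was the lowest NIMM line in 48.8% of the 43 genes, against 28.1% of all genes. GKO-IMM 1 was the lowest of its group in 6.98%, against 30.2% of all genes. The median difference of IMM from NIMM over the 43 genes was 0.01 without IMM 1 and 0.09 without IMM 2. Whether this spread comes from the lines or from the handling of single arrays was not tested.

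**Figure D4:**
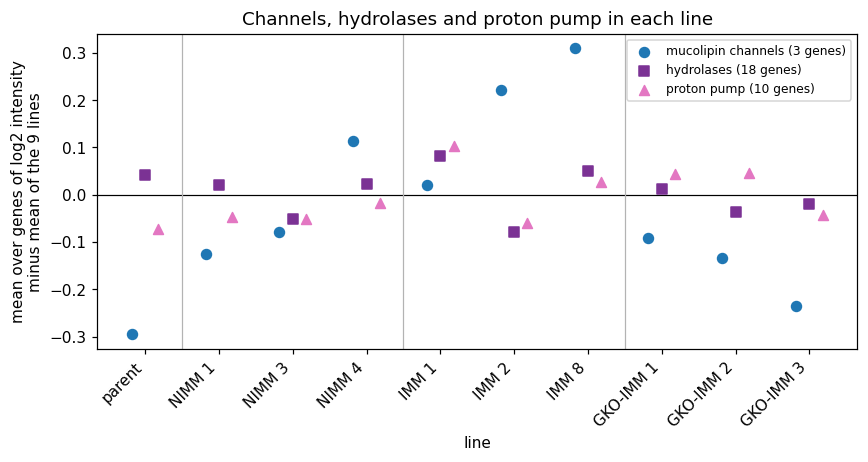
Mean over the genes of a role of the log2 intensity minus the mean of the 9 tumour-derived lines, for mucolipin channels (3 genes), hydrolases (18) and proton pump (10), in each line. Hydrolases and pump lie between -0.08 and 0.10 and are highest in IMM 1, the lowest hydrolase mean is that of IMM 2 and the lowest pump mean that of the parent, whereas the mucolipin mean reaches 0.31 in IMM 8.

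The spread among lines of a group was close to that over all genes. The median within-group SD over the 43 genes was 0.0877 on the log2 scale, and it was 0.0928 over all genes tested. Mcoln3 alone of the 43 genes ranged over at least 1 log2 unit among the 9 lines (1.68), as did 1.06% of all genes. The range was under 0.5 for 36 of the 43 genes and for 13940 of the 16352 genes tested.

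The parent line was 1 array, so its values were set against the range of the 9 tumour-derived lines with no test. It lay outside that range for 16 of 43 genes, against 25.9% of all genes tested, and was at least 1 log2 unit from every one of the 9 lines for 0 of 43, against 0.055% of all genes. It was above the 9 lines for 10 genes, namely Cd68, Ctsh, Grn, Lipa, the cysteine protease Ctsb, the palmitoyl thioesterase Ppt1, the aspartic protease Ctsd, Scarb2, Gpnmb and the hexosaminidase subunit Hexa. It was below them for 6, namely Mcoln3, Cln3, Atp6v1b2, Atp6v1d and the cysteine proteases Ctsk and Ctsl.

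Cd68 was farthest out, 0.89 above the nearest of the 9 lines. Ctsk, best known as the collagenase of osteoclasts, was at 4.69 in the parent, under the filter value of 4.74, and at 5.02 to 5.51 in the 9 lines, so that the size of its gap is not given. Cln3 was at 4.74 in the parent, at the filter value. Ctsh was 0.22 above, Ctsb and Grn 0.18 above and Lipa 0.16 above the nearest line, and Mcoln3 had a gap of -0.21. Mcoln3 thus was lowest in the parent, next in the GKO-IMM lines, then in NIMM and highest in IMM lines.

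**Figure D5:**
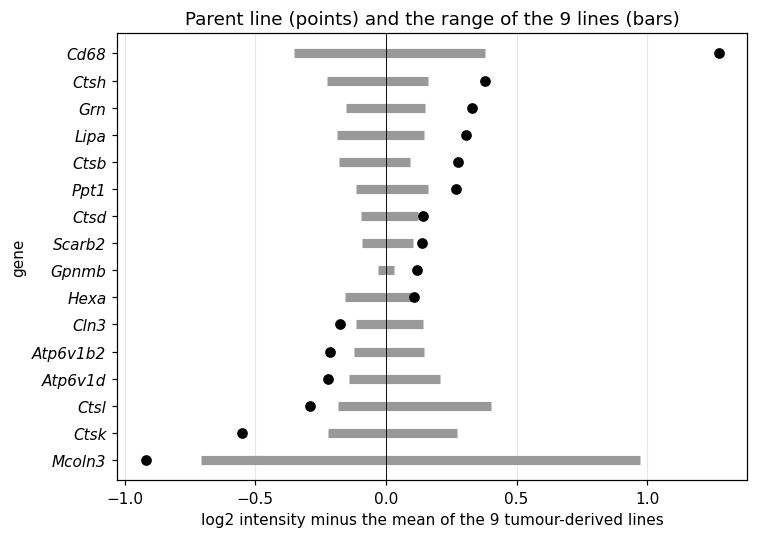
Log2 intensity in the parent line (points) and the range of the 9 tumour-derived lines (bars), both minus the mean of the 9 lines, for the 16 genes whose parent value lies outside that range. Cd68 lies 0.89 above the nearest line and Mcoln3 0.21 below it.

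A further 81 genes of the lysosomal pathway were listed, among them sorting receptors and regulators such as Mitf and Mtor. Of these, 79 had a cluster of their own, 73 were above the filter and tested, and 6 were below it (Ctss, Atp6v0d2, Atp6v1c2, Atp6v1g3, Lamp3 and Tfec). Of the 73, 1 passed in IMM against NIMM lines (0.428% of all genes did) and 1 in IMM against GKO-IMM lines (1.17%). In GKO-IMM against NIMM lines 0 passed (0.122%), and 2 passed in IMM lines against the mean of both groups (0.807%). An unadjusted p below 0.05 was found in 9 (12.3%), 18 (24.7%), 5 (6.85%) and 14 (19.2%) of the 73, beside 14.1%, 17.2%, 13.9% and 16.4% of all genes. Their median differences were 0.0016, 0.04, -0.02 and 0.02. The passing genes were Aga and Lamtor1.

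Aga (chr8:53511683-53523422), the aspartylglucosaminidase that finishes glycoprotein breakdown, had log2 intensities of 7.62 in the parent, 7.41, 7.31 and 7.22 in NIMM lines 1, 3 and 4, 7.77, 7.53 and 7.76 in IMM lines 1, 2 and 8, and 7.38, 7.29 and 7.25 in GKO-IMM lines 1, 2 and 3. The IMM lines were above all other tumour-derived lines. Aga was higher in IMM than in GKO-IMM lines by 0.38 ± 0.08 (limma, adjusted p = 0.0483) and than the mean of both groups by 0.38 ± 0.07 (limma, adjusted p = 0.0324), and the difference from NIMM, also 0.38, did not pass (limma, adjusted p = 0.0768). These calls were lost in 9 of 19 and 8 of 18 alternative settings.

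Lamtor1 (chr7:101905837-101911903), which anchors the Ragulator complex and with it mTORC1 signalling to the lysosome, had log2 intensities of 7.34 in the parent, 7.53, 7.57 and 7.55 in NIMM lines 1, 3 and 4, 7.13, 6.97 and 7.25 in IMM lines 1, 2 and 8, and 7.36, 7.52 and 7.48 in GKO-IMM lines 1, 2 and 3. All IMM lines were below the other 6. Lamtor1 was lower in IMM than in NIMM lines, with a difference of -0.43 ± 0.08 (limma, adjusted p = 0.0425), and lower than the mean of both groups (-0.38 ± 0.07, limma, adjusted p = 0.0249), and IMM minus GKO-IMM was -0.33 (limma, adjusted p = 0.0622). These calls were lost in 11 of 19 and 6 of 18 alternative settings. Mitf, the pigment-cell relative of Tfeb and Tfe3, differed by 0.25 between IMM and GKO-IMM lines and did not pass (limma, adjusted p = 0.292). Its log2 intensity was 10.69 to 10.94 in IMM and 10.51 to 10.57 in GKO-IMM lines, without overlap. NIMM lines 1, 3 and 4 stood at 10.90, 10.80 and 10.41, and they enter the shared spread.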

How the data were processed

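RNA of 10 lines was hybridised to 1-colour Affymetrix mouse gene arrays, 1 array a line, from 1 µg total RNA labelled with biotin, per the labels' protocols. The deposited table gives an intensity per transcript cluster and array on a linear scale and, in further columns, log2 values. The deposited log2 values equal log2 of the intensity minus the median of each cluster over the 10 arrays, to within 2.2e-06, and the series' value table holds the same numbers. The deposited intensities lie on nearly the same distribution on every array, but which software corrected and summarized the probes is not given in the sources used here. Of 33793 transcript clusters, 24732 carry 1 symbol, 2305 several and 6756 none, in the table's own annotation (mm10).

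Log2 of the intensity was used without further normalization. Genes under the percentile 30 of the mean over the 9 tumour-derived lines (log2 intensity 4.74) were left out. The 3 groups of 3 lines were fitted together with limma 3.58.1 in R 4.3.3 (lmFit and eBayes, 6 residual and 5.25 prior degrees of freedom, two-sided), and p-values were adjusted over all 16352 genes. The parent line did not enter the fit. The fit was tested on simulated data. Tables and figures were made with Python 3.11.15, pandas 2.3.3 and matplotlib 3.10.9. Promoters came from RefSeq on GRCm38.p6, matched by symbol. Older symbols of the array were updated through RefSeq, as for Lamtor1.

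The members, the further genes of the lysosomal pathway and the tests were chosen with earlier results of these data known. The call of Mcoln3 is therefore not independent support. Values in every line are given for genes that passed, the mucolipins, Lamp1, Lamp2, Tfeb, Tfe3 and the 2 genes of each role with the smallest p. Neu1, Atp6v1e1, Cd68, Atp6v0c, Mitf and the parent's genes were named after their values were seen. As alternatives, each line was left out in turn, and the filter was dropped or raised to percentile 50. The arrays were quantile normalized or brought to equal medians, 16 was added before log2, and clusters of 1 gene were averaged. The fit was repeated with limma's array weights, with a robust prior that follows the intensity, with line numbers as a block, and on the compared groups alone.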

Additional observations from a re-analysis of the deposited data

How the results depend on the processing

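The number of the 43 genes that passed moved under array weights, under the fit of only the groups compared, under the block and when some lines were left out, and stayed the same under the other settings. With array weights it was 1 in IMM minus NIMM, 6 in IMM minus GKO-IMM (Atp6v1h, Gla, Grn, Mcoln2, Mcoln3 and Tfe3), 2 in GKO-IMM minus NIMM (Lamp2 and Mcoln3) and 2 in IMM minus the mean of both other groups (Gla and Mcoln3). With only the groups compared it was 0, 3 (Gla, Mcoln3 and Tfe3) and 1 (Mcoln3) in the first 3 of these. The line number pairs no lines by the labels. The deviations from the group means correlated between -0.13 and 0.12 in the 5 same-numbered pairs. In pairs with different numbers they correlated between -0.12 and 0.15. Whether lines of the same number share anything else was not tested. With that number as a block the counts were 0, 3 (Mcoln2, Mcoln3 and Tfe3), 2 (Mcoln3 and Tfe3) and 1. NIMM 4 and IMM 8 share their number with no other line, so the fit with the block in effect leaves them out. Leaving out 1 line at a time gave 0 to 1 in IMM minus NIMM (1 without IMM 1), 1 to 5 in IMM minus GKO-IMM (5 without NIMM 4), 0 to 1 in GKO-IMM minus NIMM (1 without NIMM 4, Tfe3, and 1 without IMM 1, Mcoln3) and 0 to 1 in IMM minus the mean of both (0 without IMM 8). Over all genes the counts moved both ways. In IMM minus GKO-IMM 191 of 16352 genes became 1037 with array weights and 976 with only the groups compared. The count was 586 with the block and 1208 without NIMM 4. It was 91 of 23360 with no filter, 55 without IMM 8, and 51, 56 and 30 without GKO-IMM 1, 2 and 3. In GKO-IMM minus NIMM 20 of 16352 genes became 6 to 1264 (the most without NIMM 4). There the count was 1217 with array weights, 17 with only the groups compared, 915 with the block and 18 without IMM 1. In IMM minus NIMM 70 became 13 (only the groups compared) to 167 (array weights), with 29 under the block. In IMM minus the mean of both 132 became 39 (without GKO-IMM 3) to 304 (without NIMM 4). It was 265 with array weights and 88 with the block. Mcoln3 passed in IMM minus GKO-IMM in all 19 alternatives (1.09 to 1.49, limma, adjusted p from 0.000122 to 0.0319). Of 503 recomputed differences of named genes, 441 kept their direction and side of the threshold, 35 no longer passed, 24 newly passed and 3 changed sign. The last were Aga in GKO-IMM minus NIMM (-0.0084, but 0.0419 without NIMM 1 and 0.0212 without GKO-IMM 3, over a range of -0.0556 to 0.0419 when 1 line was left out) and Tfeb in IMM minus the mean of both (0.0516, but -0.00598 without IMM 1, over a range of -0.00598 to 0.0949). The parent lay outside the range of the 9 lines for 14 to 17 genes. The cause of these shifts was not tested. Low signals (Tfeb, Ctsf, Ctsk, Cln3) lie near the filter, where an array resolves differences least.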
